A study of Mus musculus with 6 samples.

Results

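The genes described here encode glucose transporters, the enzymes of glycolysis and the enzymes of the pentose phosphate pathway, 33 genes chosen by symbol. Each symbol was found in the deposited table, which holds 55450 genes, and together they took up 34 rows because Aldoa stands there on 2 rows. The RNA came from regulatory T (Treg) cells, CD4 T cells that need FOXP3 and hold back other immune cells. They were sorted out of tumours grown from MC38, a mouse colon carcinoma line. All mice were C57BL/6. In 3 libraries the Treg cells were Tim-3 sufficient, and in 3 they were Tim-3 deficient, the deficiency being in the Treg cells of the mouse. Havcr2 is the gene of Tim-3, a surface receptor with inhibitory roles on T cells. The allele, the Cre driver, the age of the mice and the number of mice behind a library are not given in the sources used here, so each p-value is set against library-to-library spread, some of which can be technical. The comparison asks whether Treg cells without Tim-3 carry different amounts of these transcripts in a tumour.

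Glycolysis splits glucose into pyruvate in the cytosol and yields ATP and NADH, and lactate dehydrogenase turns pyruvate into lactate to recover NAD. The pentose phosphate pathway branches off at glucose 6-phosphate. Its oxidative arm makes NADPH and its non-oxidative arm makes ribose 5-phosphate or returns carbon to glycolysis. Activated T cells raise glycolysis through mTORC1, MYC and HIF-1, and Treg cells are known for relying on it less than effector T cells do, with FOXP3 itself restraining it.

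Libraries are named by their group and by the mark in their column name: A1, B1 and dated for sufficient, and C1, D and dated for deficient. A calendar date stood in the name of the dated library of each group and in no other name. Havcr2 was lower in each deficient library (2.55 to 4.27 on the log2(TPM + 1) scale) than in each sufficient one (4.49 to 5.70). Its difference of -1.83 had an adjusted limma p of 0.211, and of 0.0148 in a fit that blocked the date mark, where it passed. The Treg and T cell markers Foxp3, Il2ra, Ctla4, Ikzf2, Tnfrsf18, Cd3e, Cd4 and Trac were present in all libraries. Their summed level was 10352, 10244 and 8267 TPM in sufficient A1, B1 and dated and 5972, 7988 and 8010 TPM in deficient C1, D and dated (transcript abundance per length, scaled to a fixed total per library). Each deficient library thus lay below each sufficient one. Trac, the constant gene of the T cell receptor alpha chain, had 3137 to 3345 TPM in sufficient and 1551 to 2620 TPM in deficient libraries, while Foxp3 had 27.2 to 44.95 TPM and 42.3 to 46.1 TPM. The part of this shift in the members' values was not tested. Of 11 macrophage and monocyte markers, 7 reached 1 TPM in at least 3 libraries. The macrophage markers summed to 27.8 to 931 TPM in sufficient libraries, highest in sufficient B1, and 19.3 to 1328 TPM in deficient ones, highest in deficient C1. Adgre1, a defining macrophage gene, was at 0 in sufficient A1, deficient D and deficient dated. The macrophage marker sums of these libraries still were 129, 19.3 and 20.8 TPM, with Lyz2 at 59.3, 2.96 and 11.2 TPM. The deficient dated library lacked Y-linked transcripts, with Ddx3y at 0.01 TPM against 30.4 to 45.7 TPM in the other libraries, and held Xist at 3.03 TPM.

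Promoter sequence is shown for 4 genes on which the results below turn. Aldoc had the smallest p between the groups, Hk2 and Pfkp had lower values in the dated libraries of both groups, and Ldha ranks second in level. Capitals mark each ACGTG or GCGTG on either strand, the core to which the hypoxia-inducible factor HIF-1 binds. An ACGTG inside CACGTG also belongs to the E-box bound by MYC. The windows are the 250 bases before the RefSeq start site on GRCm38.p6, ended where an annotated exon begins. They lie at chr11:78322823-78322967, plus strand, chr6:82774455-82774704, minus strand, chr13:6648778-6649021, minus strand, and chr7:46845554-46845803, plus strand.
Aldoc promoter: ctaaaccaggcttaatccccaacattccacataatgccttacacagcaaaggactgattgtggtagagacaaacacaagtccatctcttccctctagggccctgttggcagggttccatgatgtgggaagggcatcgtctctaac
Hk2 promoter: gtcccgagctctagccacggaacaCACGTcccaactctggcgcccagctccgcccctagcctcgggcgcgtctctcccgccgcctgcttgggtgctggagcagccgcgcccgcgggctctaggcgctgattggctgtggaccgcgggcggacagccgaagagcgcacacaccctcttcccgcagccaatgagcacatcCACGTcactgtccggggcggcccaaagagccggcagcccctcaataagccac
Pfkp promoter: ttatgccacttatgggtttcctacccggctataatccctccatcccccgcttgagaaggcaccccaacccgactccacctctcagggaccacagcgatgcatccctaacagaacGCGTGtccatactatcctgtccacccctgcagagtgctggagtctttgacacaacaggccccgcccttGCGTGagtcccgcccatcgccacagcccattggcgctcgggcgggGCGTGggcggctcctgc
Ldha promoter: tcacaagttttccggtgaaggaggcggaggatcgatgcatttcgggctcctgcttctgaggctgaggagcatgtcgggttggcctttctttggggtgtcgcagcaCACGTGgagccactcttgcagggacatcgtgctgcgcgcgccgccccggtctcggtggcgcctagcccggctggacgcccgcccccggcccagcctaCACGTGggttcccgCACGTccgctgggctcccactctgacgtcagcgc

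Counted per strand, Ldha held 5 matches, Pfkp 3 and Hk2 2. The 2 CACGTG stretches of Ldha each hold a match on both strands, so Ldha has fewer marked stretches than matches. The printed 145 bases of Aldoc held none, and 1 match lay in the rest of its window, inside an annotated exon. Pfkl and Pkm, also lower in the dated libraries, and Gapdh, first in level, are not printed. Their windows of 250 bases held 1, 0 and 2 matches. Of 32 member genes with a promoter window in the RefSeq table (all but Slc2a3), 71.9% held ACGTG or GCGTG in the 250 bases, against 38.6% of all 32851 windows. For CACGTG the shares were 6.2% and 6.0%. The median GC content was 57.8% in the members' windows and 52.4% over all windows, and both cores contain a CG. Each member entered with 1 window, while the set of all windows holds several for some genes, so the 2 sets are not alike. A match describes the letters of the window and is not a measured binding site.

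The levels of the route were dominated by a few abundant enzymes. All 34 rows together made up between 0.986% (sufficient dated) and 1.45% (deficient C1) of the summed TPM of a library. Sufficient libraries averaged 1.17% ± 0.16 (SD, n = 3) and deficient libraries 1.21% ± 0.22 (SD, n = 3), so the groups overlapped and differed by less than the spread between libraries. In bulk samples such as these, fewer cells of a type and less RNA per cell cannot be told apart. The 8 most abundant genes, Gapdh, Ldha, Eno1, Aldoa, Pkm, Tpi1, Pgk1 and Gpi1, held 88.5% to 89.3% of that amount in each library. Gapdh led at a mean of 2743 TPM over the 6 libraries and stood at place 48 among all genes of the table. Ldha followed at 1852 TPM, Eno1 at 1648 TPM, Aldoa at 1576 TPM, Pkm at 938 TPM, Tpi1 at 816 TPM, Pgk1 at 615 TPM and Gpi1 at 379 TPM. The ranges over libraries of neighbours in this order overlapped, except that Gpi1 (332 to 412 TPM) lay below Pgk1 (447 to 765 TPM). Of the most abundant forms at uptake and at the early regulated steps, Pfkp stood at 207 TPM, Slc2a1 at 44.4 TPM and Hk2 at 36.0 TPM. In the pentose phosphate pathway Taldo1 had 248 TPM and Pgls 126 TPM, against 25.1 TPM for Pgd, 23.6 TPM for G6pdx and 2.34 TPM for Rpia.

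**Figure D1:**
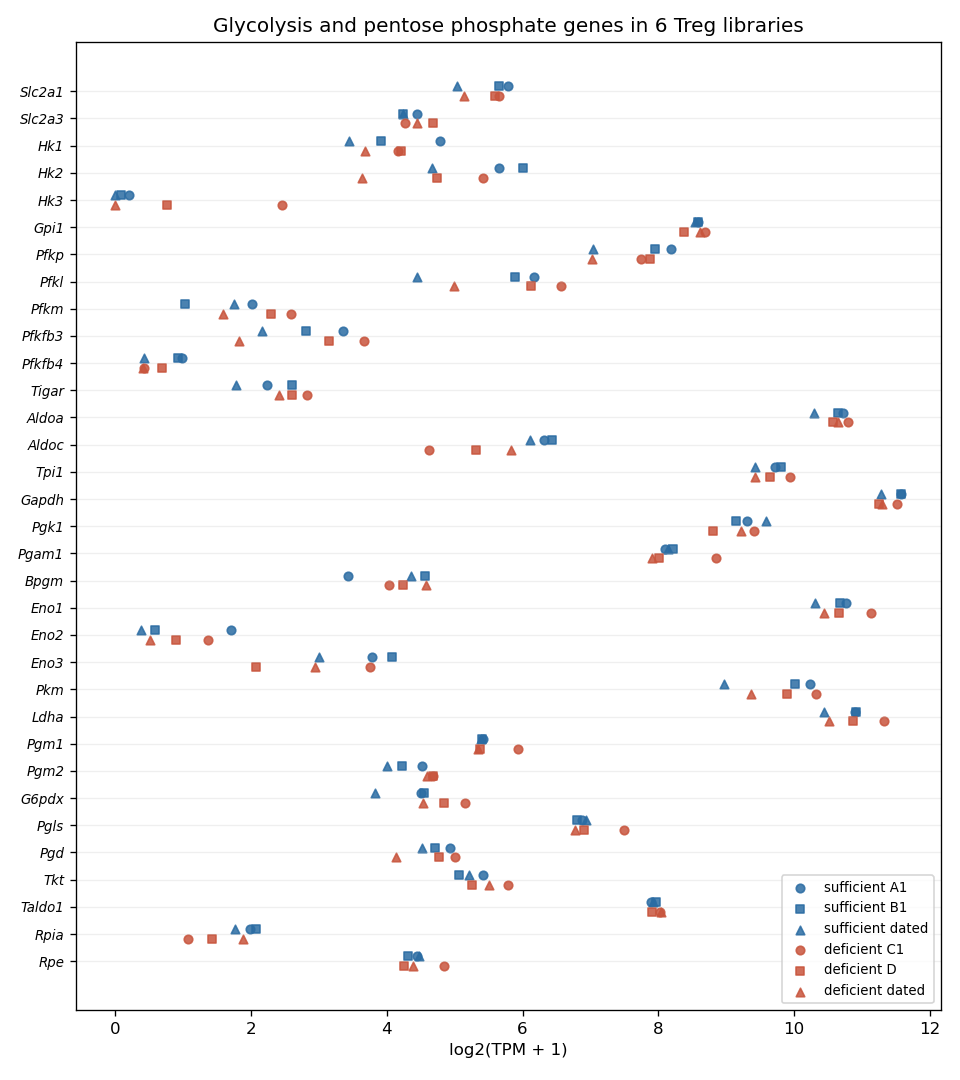
Levels of the 33 genes in log2(TPM + 1) in each library, in the order of the route (uptake and glycolysis from the top, pentose phosphate pathway at the bottom); blue is Tim-3 sufficient, red is Tim-3 deficient, circles are A1 and C1, squares B1 and D, triangles the dated libraries, and Aldoa is its main row. Aldoc is the gene of the figure whose red points all lie left of its blue points, and the triangles of Hk2, Pfkp, Pfkl and Pkm lie left of the same colour's other points.

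No gene of the list was called between the groups. A gene was tested where it reached 1 TPM in at least 3 libraries, which held for 12155 genes and for 30 of the 33 listed, and it was called at an adjusted p under 0.05 in limma. Limma called 25 of all tested genes (0.206%), 16 higher and 9 lower, a split that became 16 and 22 with quantile normalization and 11 and 19 with median centring. None of the 25 was on the list. At an unadjusted limma p under 0.05 stood 1 of the 30, Aldoc, against 11.7% of all tested genes. Groups did not overlap for 2 of the 30, Aldoc (lower in deficient) and Pgm2 (higher in deficient), against 17.6% of all tested genes (6.73% lower and 10.9% higher). A block for the date mark gave calls for 1.97% of all genes, and in that fit 0 of the 30 were called and 3 had an unadjusted p under 0.05 (Hk2, Aldoc and G6pdx), against 19.7% of all genes.

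The members' differences were small on the whole. Of the 30, 19 had a positive difference in log2(TPM + 1), deficient minus sufficient, or 63.3%, against 60.1% of all tested genes. Their median difference was 0.10, and that of all tested genes was 0.09. Median centring moved the median of all tested genes from 0.09 to -0.041 and that of the members to -0.033. The absolute difference was under 0.5 in 25 of the 30 (83.3%), against 75.9% of all genes. Deficient C1 had the highest value of the 6 libraries in 18 of the 30 (60%), while over all tested genes it was highest in 28.2%. Its macrophage marker sum was also the highest, and the part of that in the members' values was not tested. Without deficient C1 and sufficient B1 the members' median was -0.049, and that of all tested genes was 0.0546. Without deficient C1 alone the members' median was -0.075, and that of all tested genes was 0.0549.

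**Figure D2:**
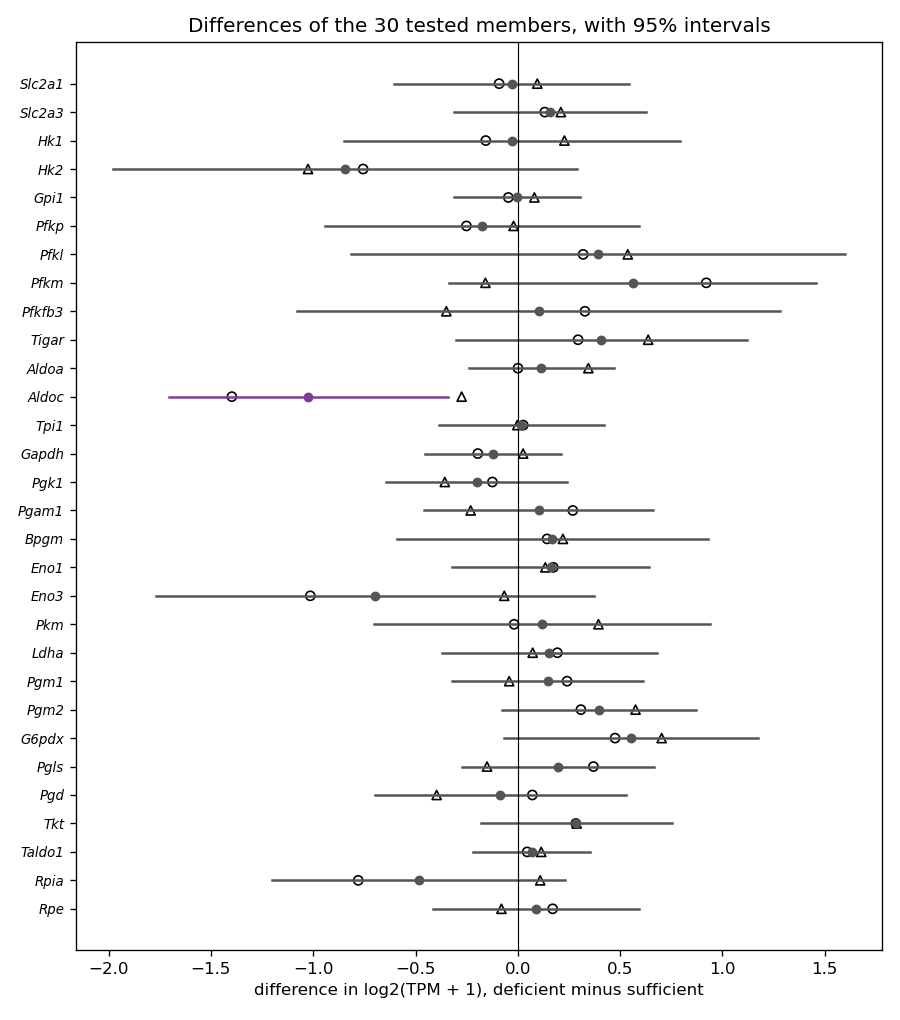
Difference in log2(TPM + 1), deficient minus sufficient, of the 30 tested genes as filled points with 95% limma intervals as bars; open circles are the difference among undated libraries and open triangles that of the dated pair. Aldoc (purple, unadjusted p under 0.05) is the gene whose interval, -1.70 to -0.34, does not reach 0.

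Neither glucose transporter transcript differed beyond the spread. Slc2a1 encodes GLUT1, the main glucose transporter of activated T cells. It had 54.2, 49.2 and 32.0 TPM in sufficient A1, B1 and dated, and 49.7, 47.1 and 34.3 TPM in deficient C1, D and dated. The dated library was lowest in both groups and the groups overlapped. The log2 difference was -0.029 with a 95% interval of -0.60 to 0.54. Slc2a3 encodes the high-affinity transporter GLUT3. It had 20.8, 17.9 and 17.9 TPM in sufficient A1, B1 and dated and 18.2, 24.6 and 20.9 TPM in deficient C1, D and dated. The groups overlapped, and the difference was 0.16 (95% interval -0.31 to 0.63). Slc2a1 made up 69.9% ± 5.1 of the summed TPM of both in sufficient and 67.0% ± 5.6 in deficient libraries (SD, n = 3 each).

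Hexokinases trap glucose in the cell as glucose 6-phosphate. Hk2, the inducible hexokinase that binds mitochondria, had 49.5, 63.3 and 24.3 TPM in sufficient A1, B1 and dated. In deficient C1, D and dated it had 41.7, 25.7 and 11.4 TPM. The sufficient dated library lay below 2 deficient libraries and the groups overlapped. On the log2(TPM + 1) scale the difference was -0.85 ± 0.49 (SE), with an adjusted limma p of 0.540. The date block lowered that adjusted p to 0.0982, while undated libraries alone gave -0.76 and the dated pair gave -1.03. Without the deficient dated library it was -0.37. Hk1, the constitutive form, had a difference of -0.029 (95% interval -0.85 to 0.79). Hk3 was not tested because only deficient C1, at 4.45 TPM, reached 1 TPM. It is the hexokinase typical of myeloid cells and stood at 0.06 TPM in sufficient B1, the other library rich in macrophage markers. Hk2 made up 72.6% ± 8.5 of hexokinase TPM in sufficient and 57.9% ± 8.5 in deficient libraries (SD, n = 3 each). The sufficient libraries held 65.1%, 81.8% and 71.0% and the deficient ones 66.1%, 58.5% and 49.2%. They overlapped by the place of deficient C1 above sufficient A1.

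Gpi1, which turns glucose 6-phosphate into fructose 6-phosphate, was among the steadiest genes. It had 380.5, 384 and 372 TPM in sufficient A1, B1 and dated and 412, 332 and 393 TPM in deficient C1, D and dated. Deficient libraries held both its highest and its lowest value, and its difference was -0.0039 (95% interval -0.31 to 0.31).

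Phosphofructokinase commits sugar to glycolysis, and 3 genes encode its subunits. Pfkp, the platelet form and the main one here, had 289, 246 and 131 TPM in sufficient A1, B1 and dated. In deficient C1, D and dated it had 214, 234 and 129 TPM. Pfkl, the liver form, had 70.9, 58.2 and 20.8 TPM in sufficient and 94.2, 68.6 and 30.7 TPM in deficient libraries, in the same order. In both genes each dated library lay far below the undated libraries of its own group, and the groups overlapped. The differences were -0.17 for Pfkp (95% interval -0.94 to 0.59) and 0.39 for Pfkl (95% interval -0.82 to 1.60). Pfkm, the muscle form, had 3.05, 1.04 and 2.37 TPM in sufficient A1, B1 and dated and 5.02, 3.92 and 2.02 TPM in deficient C1, D and dated. The undated deficient libraries were its highest and the dated one lay in the sufficient range, with a difference of 0.56 that was 0.92 in undated libraries and -0.16 between the dated ones. Pfkp made up 81.7% ± 2.8 of phosphofructokinase TPM in sufficient and 74.8% ± 5.9 in deficient libraries (SD, n = 3 each). Pfkl made up 17.4% ± 3.3 and 23.8% ± 5.7. Neither share separated the groups.

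**Figure D3:**
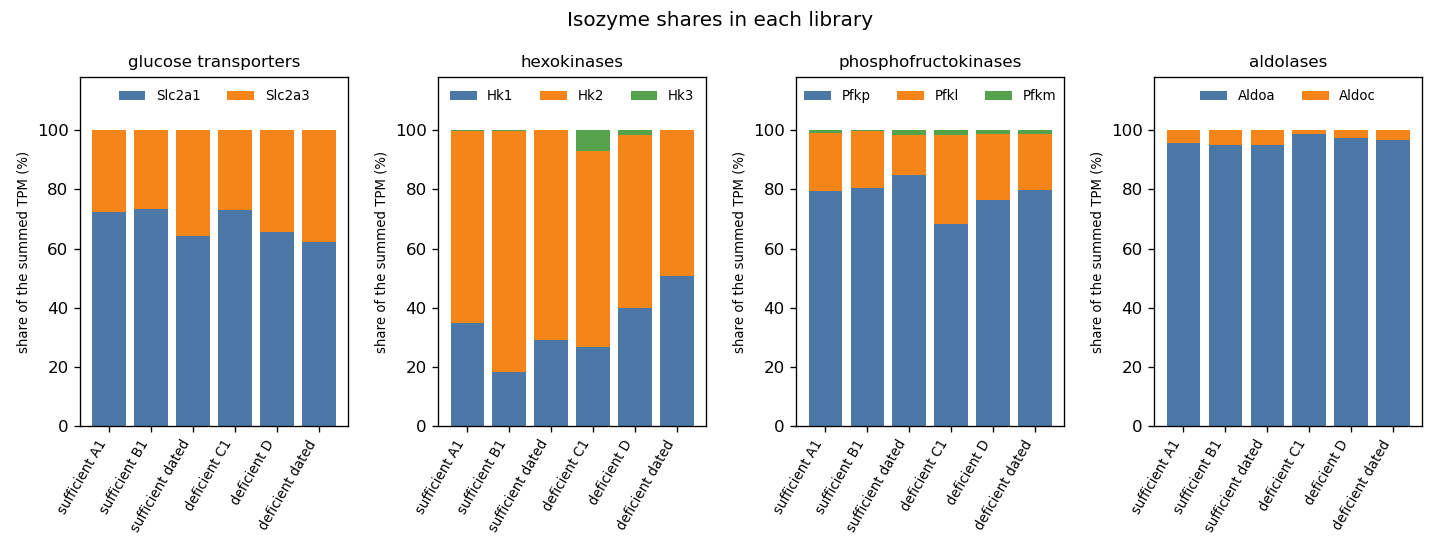
Share of each isozyme in the summed TPM of its family (percent, stacked bars from 0 to 100) in each of the 6 libraries, for glucose transporters, hexokinases, phosphofructokinases and aldolases. The Aldoc part of the aldolase bars is 4.43% to 5.12% in sufficient and 1.31% to 3.38% in deficient libraries, and the Hk3 part is visible in deficient C1 at 7.05%.

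Fructose 2,6-bisphosphate switches phosphofructokinase on. Pfkfb3, which makes it, had 9.21, 5.99 and 3.51 TPM in sufficient A1, B1 and dated and 11.7, 7.89 and 2.54 TPM in deficient C1, D and dated. The dated libraries were again the lowest of each group, and the difference was 0.10 (95% interval -1.08 to 1.28). Pfkfb4 stayed under 1 TPM in all 6 libraries and was not tested. Tigar, which breaks fructose 2,6-bisphosphate down and so favours the pentose phosphate pathway, had 3.72, 5.06 and 2.44 TPM in sufficient A1, B1 and dated. In deficient C1, D and dated it had 6.10, 5.06 and 4.35 TPM. The groups overlapped, with a difference of 0.41 (95% interval -0.30 to 1.12).

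Aldolase splits fructose 1,6-bisphosphate, and of its genes Aldoc and Aldoa were tested. Aldoc (ENSMUSG00000017390.15, GRCm38 chromosome 11, 78322968 to 78327781, plus strand) encodes aldolase C, the form first known from brain. It had 78.2, 85.1 and 68.0 TPM in sufficient A1, B1 and dated, and 23.6, 38.9 and 56.0 TPM in deficient C1, D and dated. Each deficient library lay below each sufficient one, and the deficient libraries were far more spread than the sufficient ones. The mean was 6.28 ± 0.16 in sufficient and 5.26 ± 0.61 in deficient libraries on the log2(TPM + 1) scale (SD, n = 3 each). The difference was -1.02 ± 0.29 (SE), a 2.03-fold lower value, with an unadjusted limma p of 0.00845 and an adjusted p of 0.239, so Aldoc did not pass over all genes. Undated libraries alone gave -1.40 and the dated pair gave -0.27. Without both dated libraries Aldoc was called, at an adjusted limma p of 0.0477, and over the other alternatives its adjusted p ran from 0.0568 to 0.846. Aldoc was lowest in deficient C1, which had the highest macrophage marker sum (1328 TPM) and the lowest Treg and T cell sum (5972 TPM), and next lowest in deficient D, with a macrophage sum of 19.3 TPM. The part of these cell type sums in the Aldoc values was not tested. Without sufficient B1 and deficient C1 the difference was -0.63 with an adjusted p of 0.846. No other annotated gene shared a 75-base stretch with Aldoc transcripts, and no other gene overlapped its exons.

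Aldoa, the aldolase of muscle and most other cells, had 1687, 1605 and 1261 TPM in sufficient A1, B1 and dated and 1786, 1518 and 1601 TPM in deficient C1, D and dated. The groups overlapped, and the difference was 0.12 (95% interval -0.24 to 0.47), which turned to -0.019 with median centring. A second row with the symbol Aldoa, an annotated gene just upstream on the same strand, stayed under 1 TPM and was not tested. Aldoc thus held 4.86% ± 0.38 of aldolase TPM in sufficient and 2.39% ± 1.04 in deficient libraries (SD, n = 3 each). The lowest sufficient share was 4.43% and the highest deficient share 3.38%, so the shares did not overlap. With 3 libraries against 3, an exact two-sided permutation test cannot go below 0.1.

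The payoff enzymes from triose phosphate to pyruvate did not separate the groups. Gapdh, which makes the NADH of glycolysis, had 3059, 3042 and 2482 TPM in sufficient A1, B1 and dated and 2912, 2437 and 2527 TPM in deficient C1, D and dated. Its difference was -0.12 (95% interval -0.46 to 0.21). The sufficient A1 and B1 libraries were highest and the groups overlapped. Tpi1, triose phosphate isomerase, had 844, 895 and 688 TPM in sufficient A1, B1 and dated and 984, 796 and 687 TPM in deficient C1, D and dated. The dated libraries were its lowest, and the difference was 0.017 (95% interval -0.39 to 0.42). Pgk1, phosphoglycerate kinase and one of 2 X-linked members, had 635, 568 and 765 TPM in sufficient A1, B1 and dated and 680, 447 and 597 TPM in deficient C1, D and dated. It was highest in the sufficient dated library, and its difference was -0.20 (95% interval -0.64 to 0.24). Pgam1, phosphoglycerate mutase, had 272, 297 and 281 TPM in sufficient A1, B1 and dated and 459.9, 256 and 239.5 TPM in deficient C1, D and dated. Deficient C1 alone stood above the sufficient range, and the difference was 0.10 (95% interval -0.46 to 0.66), and -0.195 without that library. Eno1, the main enolase, had 1740, 1636 and 1265 TPM in sufficient A1, B1 and dated and 2243, 1614 and 1389 TPM in deficient C1, D and dated. Deficient C1 was again highest and the dated libraries lowest, and the difference was 0.16 (95% interval -0.32 to 0.64). None of these 5 intervals reaches a change of 1 log2 unit in either direction. The signs of the Tpi1 and Pgam1 differences turned with median centring.

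Pkm, which encodes pyruvate kinase, had 1198, 1039 and 502 TPM in sufficient A1, B1 and dated. In deficient C1, D and dated it had 1282, 947 and 660 TPM. The dated library was the lowest of each group, and the group difference of 0.12 (95% interval -0.70 to 0.94) turned to -0.016 with median centring. Eno3, the muscle enolase, had 12.8, 16.0 and 7.01 TPM in sufficient A1, B1 and dated and 12.5, 3.24 and 6.65 TPM in deficient C1, D and dated. Deficient D was lowest and the groups overlapped, and the difference of -0.70 had an adjusted limma p of 0.586. Without deficient D it was -0.28. Eno2, the neuronal form, was not tested and held at most 0.129% of enolase TPM in a library, while Eno1 held 99.0% to 99.7%. Bpgm, which makes 2,3-bisphosphoglycerate, had 9.75, 22.7 and 19.5 TPM in sufficient A1, B1 and dated and 15.4, 17.9 and 22.9 TPM in deficient C1, D and dated. Sufficient A1 was lowest, and the difference was 0.17 (95% interval -0.59 to 0.93).

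Ldha had 1907, 1920 and 1391 TPM in sufficient A1, B1 and dated and 2565, 1866 and 1463 TPM in deficient C1, D and dated. Deficient C1 was highest and the dated libraries were the lowest of each group. Its difference was 0.15 (95% interval -0.37 to 0.68), and it was -0.058 without deficient C1.

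Pgm1 encodes the phosphoglucomutase that connects glucose 6-phosphate with glycogen, and Pgm2 was grouped with it by name. Pgm2 had 21.9, 17.7 and 15.1 TPM in sufficient A1, B1 and dated and 24.7, 24.6 and 23.0 TPM in deficient C1, D and dated. Each deficient library lay above each sufficient one, by a narrow margin. The difference was 0.40 ± 0.21 (SE), and the adjusted limma p was 0.497. Pgm1 had 41.9, 41.4 and 41.0 TPM in sufficient A1, B1 and dated and 60.2, 40.4 and 39.8 TPM in deficient C1, D and dated. Deficient C1 alone stood above the sufficient range. Its difference was 0.15, and -0.045 without deficient C1.

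In the oxidative arm of the pentose phosphate pathway, G6pdx had the largest difference. It encodes glucose 6-phosphate dehydrogenase, the gate of the pathway. G6pdx had 21.6, 22.4 and 13.2 TPM in sufficient A1, B1 and dated and 34.5, 27.8 and 22.2 TPM in deficient C1, D and dated. The deficient dated library fell within the sufficient range, so the groups overlapped, and that library is also the one without Y-linked transcripts while G6pdx is X-linked. The difference was 0.55 ± 0.27 (SE), with an adjusted limma p of 0.466 and of 0.140 with the date block. The undated libraries gave 0.48 and the dated pair 0.70. Ikbkg, on the opposite strand, shared 13.6% of the exon bases of G6pdx and had a mean of 8.42 TPM, and no label says that strand was kept. Pgls, the lactonase, had 116, 110.5 and 121 TPM in sufficient A1, B1 and dated and 180.3, 119.6 and 109 TPM in deficient C1, D and dated. Deficient C1 alone stood above the sufficient range, with a difference of 0.20 that was -0.022 without it. Pgd, which makes the second NADPH of the arm, had 29.5, 25.2 and 22.0 TPM in sufficient A1, B1 and dated and 31.3, 26.4 and 16.5 TPM in deficient C1, D and dated. The dated library was lowest in each group, with a difference of -0.085 (95% interval -0.70 to 0.53).

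In the non-oxidative arm no gene separated the groups. Taldo1, transaldolase, had 236, 248 and 242 TPM in sufficient A1, B1 and dated and 261, 239.6 and 262 TPM in deficient C1, D and dated. It varied little, and its difference of 0.069 had the narrowest interval of the list, -0.22 to 0.35. Tkt, transketolase, had 41.7, 32.3 and 36.0 TPM in sufficient A1, B1 and dated and 54.4, 37.1 and 44.1 TPM in deficient C1, D and dated. The groups overlapped, and the difference was 0.29 (95% interval -0.18 to 0.75). Rpe, the epimerase, had 20.7, 18.9 and 21.2 TPM in sufficient A1, B1 and dated and 27.6, 18.2 and 20.0 TPM in deficient C1, D and dated. Deficient C1 was highest, with a difference of 0.087 that was -0.048 with median centring. Rpia, the isomerase that makes ribose 5-phosphate, had 2.96, 3.21 and 2.42 TPM in sufficient A1, B1 and dated and 1.11, 1.68 and 2.69 TPM in deficient C1, D and dated. Only the dated deficient library reached the sufficient range. The Rpia difference was -0.48, and it did not pass the test. Undated libraries gave -0.78 and the dated pair 0.11.

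Some of these genes were lower in the libraries with the date mark. The mark is a date in the column name, and the labels do not say what was done on it. In the fit with group and date mark, limma called 4 of the 30 lower in the dated libraries and 0 higher, while 3.56% of all tested genes were called and 2.99% were called lower. These were Pfkl at -1.47 (adjusted p = 0.0173), Pfkp at -0.91 (adjusted p = 0.0243), Pkm at -0.94 (adjusted p = 0.0328) and Hk2 at -1.31 (adjusted p = 0.0328). Other forms of the same steps were not called, Hk1 at -0.70 (adjusted p = 0.161) and Pfkm at -0.31 (adjusted p = 0.663). At an unadjusted p under 0.05, 12 of the 30 were lower in the dated libraries, against 20.4% of all genes. The other 8 were Pfkfb3, Slc2a1, Ldha, G6pdx, Eno1, Tpi1, Pgd and Hk1. The absolute difference by date mark exceeded that by group in 20 of the 30 (66.7%), a share near the 56.8% of all genes. The date contrast sets 2 libraries against 4 and the group contrast 3 against 3, so their errors are not alike. Of 14 proliferation genes, 11 were lower in the dated libraries at an unadjusted limma p under 0.05 and 3 of them at an adjusted p under 0.05. Their part in the members' values was not tested. The numbers of genes at 1 TPM were also lowest in the dated libraries, 11470 and 11474 against 12104 to 12681. With 2 dated libraries, 1 per group, the mark is balanced over the groups in number. The dated pair was not alike in Y-linked transcripts, with Ddx3y at 30.4 TPM in sufficient dated and 0.01 TPM in deficient dated. In the differences of that pair, the group and this mismatch cannot be told apart.

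**Figure D4:**
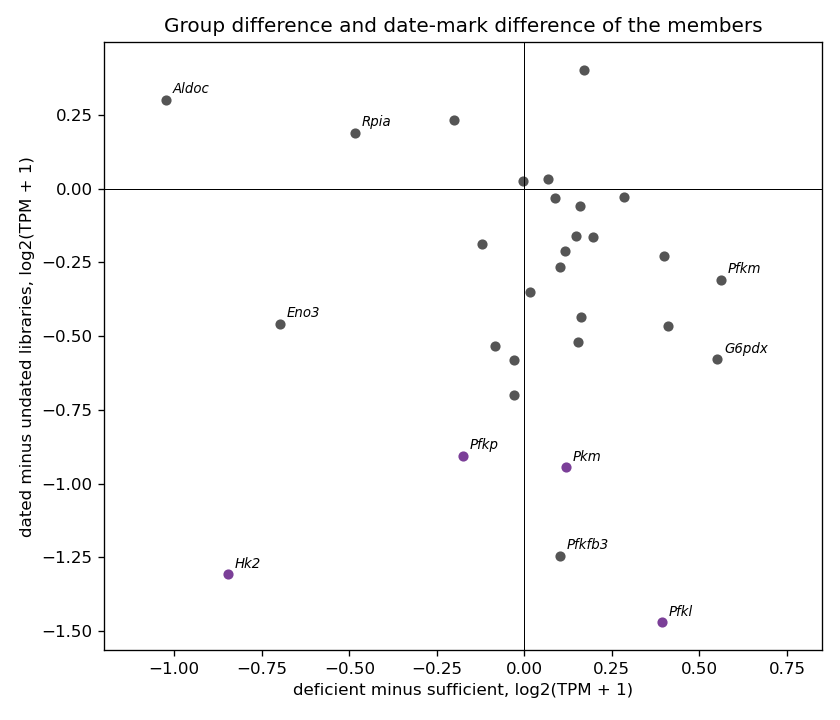
Difference between deficient and sufficient libraries (x axis) and between dated and undated libraries (y axis) of the 30 tested genes, both in log2(TPM + 1), from the fit with both terms; purple marks genes past an adjusted p of 0.05 for the date mark. The 4 purple points are Pfkl, Hk2, Pkm and Pfkp, from -1.47 to -0.91 on the y axis.

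Other enzymes of the route showed larger differences than the listed ones, although none was called. Of 34 such genes, 18 were tested and 7 had an unadjusted limma p under 0.05, 5 higher and 2 lower in deficient libraries, against 6.98% and 4.69% of all tested genes. Their median difference was 0.43. The median absolute difference was 0.58, against 0.16 for the listed members and 0.27 for all tested genes. This list, too, was chosen with earlier results of these data known, and its genes were not matched to the members in level. Adpgk, the ADP-dependent glucokinase, had 3.06, 2.62 and 2.75 in sufficient A1, B1 and dated on the log2(TPM + 1) scale and 4.30, 4.24 and 3.65 in deficient C1, D and dated. Its difference was 1.26 ± 0.27 (SE), with an adjusted limma p of 0.142 and of 0.0440 with the date block. Prps1, which turns ribose 5-phosphate into the precursor of nucleotides, had 4.62, 4.97 and 4.41 in sufficient and 6.00, 5.86 and 5.32 in deficient libraries. Its difference was 1.06 ± 0.24 (SE), with an adjusted p of 0.153 and of 0.0282 with the date block. In both genes each deficient library lay above each sufficient one. Prps1 is X-linked.

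Ldhb, the lactate dehydrogenase subunit that favours pyruvate, differed by 1.01 over all libraries, by 1.48 among undated libraries and by 0.059 in the dated pair. Gys1, glycogen synthase, differed by 1.36 and Pgm2l1, glucose 1,6-bisphosphate synthase, by 0.99. Ugp2, which makes the UDP-glucose used by glycogen synthase, differed by -0.56, and Pfkfb1 by -0.90, with 1.91 to 2.06 in deficient and 2.66 to 3.14 in sufficient libraries. The adjusted p of these 5 lay between 0.214 and 0.386 in limma. Slc2a2, Hkdc1, Pgk2, Pklr, Ldhc, Fbp1, Fbp2 and Tktl2, forms of liver, kidney, testis or other tissues, were listed at 0 in all 6 libraries.

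Of 24 genes for the fate of pyruvate and lactate, 20 were tested, 0 were called in limma and 4 had an unadjusted p under 0.05, all higher in deficient libraries, against 6.98% higher and 4.69% lower over all tested genes. These were Gpt2 (alanine aminotransferase) at 1.34, Pdp1 (the phosphatase that activates pyruvate dehydrogenase) at 0.92, Dlat (a subunit of pyruvate dehydrogenase) at 0.91 and Me2 (mitochondrial malic enzyme) at 0.46. Gpt2 and Me2 separated the groups, whereas Pdp1 and Dlat overlapped. Pdk1, a pyruvate dehydrogenase kinase, also separated them, at 0.53 with an unadjusted limma p of 0.0525. Groups thus did not overlap for 3 of the 20, all higher, against 10.9% higher over all tested genes. Of 32 regulators, 29 were tested, 0 were called in limma and 3 had an unadjusted p under 0.05, a share near the 11.7% of all tested genes. The 3 were higher in deficient libraries, while 16 of the 29 had a negative difference. Groups did not overlap for 3 that were higher (Mlx, Nfe2l2 and Prkaa1) and 4 that were lower (Egln1, Vhl, Max and Stk11, at -0.57 to -0.39). Over all tested genes these shares were 10.9% and 6.73%. Nfe2l2, which encodes the redox factor NRF2, differed by 0.84 and passed with the date block (adjusted p = 0.0476). Myc differed by 0.81 and Prkaa1, a catalytic subunit of AMPK, by 0.72, and neither passed with the block. Hif1a differed by -0.026 and Irf4 by 0.042.

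Of 15 genes linked to NADPH or redox balance, 14 were tested and 0 were called in limma. An unadjusted limma p under 0.05 was found for 3 of them (2 higher and 1 lower), against 11.7% of all tested genes. Gpx4, which reduces lipid peroxides, had 9.16, 9.21 and 9.0 in sufficient A1, B1 and dated and 9.73, 9.76 and 9.71 in deficient C1, D and dated. The difference was 0.61 ± 0.12 (SE), with an adjusted limma p of 0.113 and of 0.0347 with the date block. Sod1, superoxide dismutase, differed by -0.65 (adjusted p = 0.159), and no deficient library reached a sufficient one. Idh2, mitochondrial isocitrate dehydrogenase, differed by 1.0 (adjusted p = 0.336). Of the 14 proliferation genes, all tested, 0 had an unadjusted p under 0.05 between the groups.

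**Figure D5:**
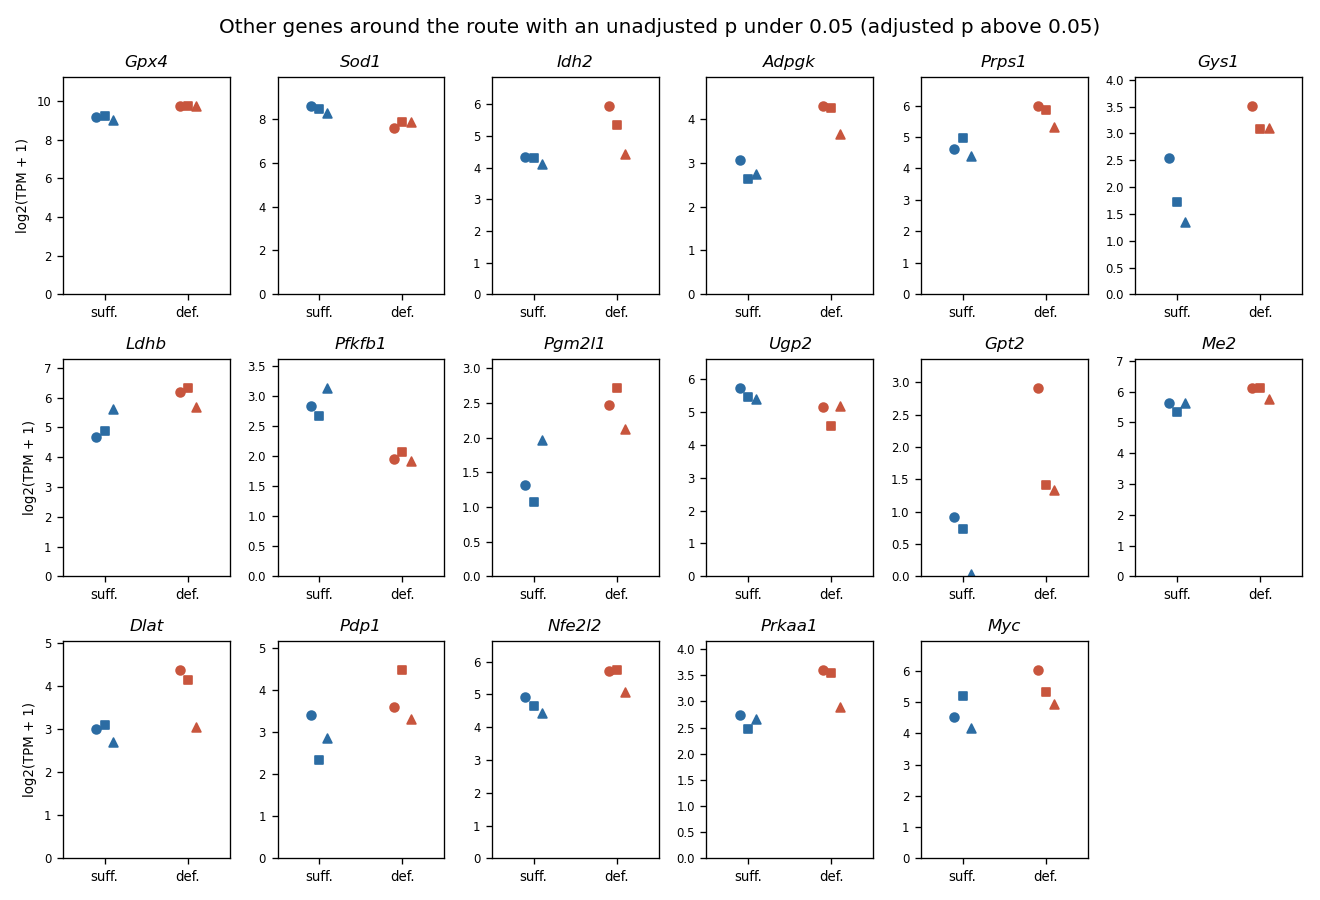
Levels in log2(TPM + 1), with axes from 0, of the 17 genes of the other 4 lists with an unadjusted limma p under 0.05; blue is Tim-3 sufficient, red Tim-3 deficient, circles are A1 and C1, squares B1 and D, triangles the dated libraries. All 17 had an adjusted p above 0.05. Red points lie above all blue points for Adpgk, Prps1, Ldhb, Gys1, Pgm2l1, Gpt2, Me2, Nfe2l2, Prkaa1, Gpx4 and Idh2. They lie below for Sod1, Pfkfb1 and Ugp2, and the colours overlap for Dlat, Pdp1 and Myc.

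Several members have close copies in the genome among which reads can be divided. Transcripts of 121 other annotated genes, 114 of them pseudogenes, shared at least one stretch of 75 bases (the read length) with Gapdh. They covered 22.6% of its 75-base stretches and summed to 6.33% of its TPM. For Pgk1 4 pseudogenes covered 52.8% of the stretches and summed to 4.94% of its TPM, and for Pgam1 2 pseudogenes covered 34.9% and summed to 6.26%. RSEM was named among the tools, without a version, and its division of reads among such copies cannot be checked from TPM values. The levels of these 3 genes are therefore uncertain. Slc2a3 and Rpia shared only 0.5% and 2.0% of their stretches, but with genes of higher summed level, among them Map1lc3b at 650 TPM for Slc2a3, and 19 genes summing to 19.4 TPM for Rpia. Eno1 shared 23.0% of its stretches with 6 genes, of which Eno1b, an enolase gene, was the highest at 26.5 TPM. Hk2, Pfkl, Tkt, Pgd, Pgm2 and Aldoc shared none. Overlapping genes shared exon bases with Pgm1 (13.6%, with Itgb3bp at 17.6 TPM), Rpe (17.9%) and Pgls (20.6%).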

How the data were processed

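The deposited log2 values were used as the authors deposited them. They are log2(TPM + 1): undoing the log gives library totals of 999999 to 1000001, and the linear TPM values are multiples of 0.01 in 100% of cases (tolerance 1% of that step). Per the submitters' processing notes, STAR, RSEM and limma were named without versions, with the builds GRCm38 and mm10. Depth is unknown because TPM keeps no read counts, so no counting interval was computed, and TPM is a share of a fixed total. All 55450 gene identifiers matched GENCODE mouse release 21 (GRCm38), from which coordinates came. Column names gave each library's group but not its replicate number.

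Testing covered genes at 1 or more on the deposited scale in 3 or more of 6 libraries. It used limma 3.58.1 in R 4.3.3 (lmFit, eBayes with a mean-variance trend, no covariate), two-sided, with Benjamini-Hochberg adjustment over 12155 genes. Fold changes on the log2(TPM + 1) scale understate those of low genes. The script was tested on simulated data. Isozyme shares used linear TPM. Python 3.11.15 and pandas 2.3.3 were used for tables. The members and lists were chosen with earlier results of these data known. Members with an unadjusted p under 0.05, the most abundant member of each step and those of largest difference were named with all values, and others by range. In the other lists, genes with an unadjusted p under 0.05 were named. Further genes, such as Hif1a, Irf4, Pdk1, Mlx, the 4 lower regulators without overlap and those listed at 0, were named after their values were seen. Alternatives covered the filter, the pseudocount (0.1), normalization, the variance model, the date block and left-out libraries. The coefficient of the date mark and the fit without the libraries richest in macrophage markers were added after seeing the data.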

Additional observations from a re-analysis of the deposited data

How the results depend on the processing

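The count of called genes over the whole table depended on the settings: limma called 25 of 12155, against 240 with the date mark as a block, 215 without both dated libraries, 38 with quantile normalization, 4 without the mean-variance trend and 1 with no filter on low values (25798 genes tested). Leaving out each library in turn gave between 0 and 121 calls, with 0 without sufficient B1 (978 genes at an unadjusted p under 0.05), 0 without deficient D (944), 2 without sufficient A1, 11 without deficient C1 and 121 without deficient dated. Without sufficient B1 and deficient C1 it gave 0 (748 at an unadjusted p under 0.05). Among the members 0 were called, except that 1 (Aldoc) was called without both dated libraries, and their median moved by less than the spread between libraries (0.311) under each alternative run. Of the 30 tested members, 12 kept the sign of their difference under every alternative run for them, among these Aldoc (-1.40 to -0.63), Hk2 (-1.26 to -0.37), G6pdx (0.32 to 0.71) and Pgm2 (0.25 to 0.53). The sign turned in 44 of 449 member results under an alternative, all of them not called. With median centring the differences became -0.0327 for Pfkfb3, -0.0195 for Aldoa, -0.118 for Tpi1, -0.0326 for Pgam1, -0.0156 for Pkm, -0.0663 for Taldo1 and -0.048 for Rpe. With quantile normalization it was -0.0423 for Rpe, without both dated libraries -0.018 for Pkm and 0.0711 for Pgd, and without sufficient B1 and deficient C1 -0.275 for Pfkfb3, -0.0432 for Tpi1, -0.16 for Pgam1, -0.0463 for Pgm1, -0.0564 for Pgls and -0.131 for Rpe. Leaving out each library in turn gave -0.254 to 0.133 for Slc2a1, -0.326 to 0.336 for Hk1, -0.515 to 0.0894 for Pfkp, -0.177 to 0.394 for Bpgm, -0.273 to 0.171 for Pgd, -0.0662 to 0.088 for Gpi1, -0.134 to 0.846 for Pfkl, -0.289 to 0.63 for Pfkfb3, -0.0125 to 0.197 for Aldoa, -0.12 to 0.139 for Tpi1, -0.264 to 0.366 for Pkm, -0.0584 to 0.346 for Ldha, -0.195 to 0.275 for Pgam1, -0.0338 to 0.312 for Eno1, -0.0454 to 0.247 for Pgm1, -0.0216 to 0.338 for Pgls and -0.0834 to 0.205 for Rpe. The cause of these changes was not tested. Rpia was not tested under the stricter filter. No paired analysis was possible because the deposited columns carry no replicate number of the labels. Since depth is unknown, the counting error of values under 1 TPM cannot be given.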
